A study of Rattus norvegicus with 6 samples.

Results

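The imprinted Dlk1-Dio3 locus carries one of the largest miRNA clusters of placental mammals, and 59 of the 721 entries of the deposited rat testis miRNA table were its members. They were chosen by name, from a list of the miRNA numbers of this locus. No expression value entered this rule, although earlier results of these data were known when it was set. All 59 matched a miRNA gene in the RefSeq annotation of assembly GRCr8, on chromosome 6, and these were 39 genes. Small RNA had been sequenced in 6 libraries of testicular tissue of Sprague-Dawley rats, 3 from rats with STZ-induced diabetes of 8 weeks and 3 from normal rats. According to the study's methods, the diabetic rats ate a high-fat diet before a single injection of streptozotocin (STZ), a compound that kills insulin-producing cells, and only rats with lasting high blood glucose were kept, whereas control rats were injected with citrate buffer. The rats were adult males, and no genetic alteration was stated for either group. The labels number the libraries within a group and do not say whether a library is 1 rat or a pool. The comparison asked which miRNAs of the diabetic testis differed from the normal one.

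A miRNA is cut from a hairpin precursor that gives a 5p strand from its left arm and a 3p strand from its right arm, and it represses mRNAs through its seed, bases 2 to 8 of the mature strand. At the Dlk1-Dio3 locus the protein genes Dlk1, Rtl1 and Dio3 are read from the paternal chromosome, whereas Meg3 and the long non-coding transcripts that carry the miRNA hairpins are read from the maternal one. The hairpins fall into an upstream part, around Meg3 and Rtl1, and a large array that begins with miR-379 and ends with miR-410. Several upstream miRNAs lie antisense to Rtl1, a retrotransposon-derived gene needed in the placenta, and miR-127 and miR-136 are known to match its transcript. The cluster is best known from brain, placenta and embryonic tissues.

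The mature strands on which the results below turn are written 5′ to 3′ from RefSeq (GRCr8), with the seed in capitals. A mature sequence was found for 57 of the 59 members, and for miR-127-5p and miR-136-5p only the name is given. The 4 most abundant members come first because they carried most of the reads.
miR-127-3p: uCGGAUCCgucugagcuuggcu
miR-379-5p: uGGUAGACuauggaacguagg
miR-434-3p: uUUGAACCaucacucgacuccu
miR-411-5p: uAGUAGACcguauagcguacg
The next 5 are the members whose diabetic and normal libraries did not overlap.
miR-379-3p: cUAUGUAAcaugguccacuaac
miR-382-5p: gAAGUUGUucgugguggauucg
miR-337-5p: cGGCGUCAugcaggaguugau
miR-134-5p: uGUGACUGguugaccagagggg
miR-376b-5p: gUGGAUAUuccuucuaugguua
The hairpin of Mir379 is shown with both mature arms in capitals, 5p first, because its arms are compared below.
Mir379: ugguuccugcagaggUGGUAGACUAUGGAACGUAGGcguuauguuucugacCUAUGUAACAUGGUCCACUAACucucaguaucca

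The members shared their place in the genome and not their seeds. The 57 sequences held 56 distinct seeds, and the only seed found in more than 1 member was that of miR-410-5p and miR-494-5p, which had 1 read each over all libraries. miR-379-5p and miR-411-5p, neighbours in the array, shared bases 3 to 8 (GUAGAC). Similar sequences matter for counting, because how reads were shared between near-identical miRNAs is not given in the sources used here. The closest pair of members was miR-379-3p and miR-411-3p, identical at 19 of 20 aligned bases, and miR-411-3p had 2 reads in all.

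In gene order the upstream part, from Mir493 to Mir370, held 15 members from 10 genes, and the array, from Mir379 to Mir410, held 44 members from 29 genes. Of the 39 genes, Mir3581 alone lay on the minus strand, opposite Mir409, and it gives miR-409b. Mir431, Mir433, Mir127, Mir434 and Mir136 lay inside the Rtl1 gene, and these 5 genes gave 8 members. Of the 59 members, 23 were named as 5p, 31 as 3p and 5 without an arm.

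The values are CPM, the reads of a miRNA divided by all miRNA reads of its library and scaled to the same total in each, and they were traced back to whole reads. The 6 libraries held 305476 to 549446 miRNA reads, so that 1 read stood for 1.82 to 3.27 CPM. The level of 3 reads, taken as the floor of measurement, stood for 5.46 to 9.82 CPM, but values under it still entered the tests. Marker miRNAs of germ cells (miR-34b-5p, miR-34c-5p and miR-449a-5p) summed to 300900 to 350260 CPM and overlapped between the groups, and none of the 3 was at 0 in any library, which is what the tissue label calls for. The pair miR-202-3p and miR-202-5p was listed for Sertoli and gonadal somatic cells, but it is also known from germ cells and does not separate the 2. This pair and the endothelial pair, miR-126a-3p and miR-126a-5p, were each higher in every diabetic library than in any normal one when summed (4102 to 4467 against 3262 to 3693 CPM, and 11721 to 13783 against 8662 to 11086 CPM). Both endothelial entries had a positive log2 change, but only 1 of the 2 entries of the miR-202 pair did, and the median of that pair was 0.06. The liver miRNA miR-122-5p was lower in every diabetic library (935.5 to 1372 against 1839 to 2786 CPM). The exact permutation p was 0.1 for the miR-202, endothelial and liver values alike, and 14.9% of all single miRNAs tested also did not overlap between the groups. The sums of the fibroblast and stromal list (5657 to 7496 CPM), the peritubular and vessel wall list (78599 to 96768 CPM), the blood and immune list (642.4 to 945.0 CPM) and the neuronal list (444.0 to 828.2 CPM) overlapped between the groups. Such sums follow the most abundant entries. By entry, 2 of 5 were higher in the blood and immune list (median log2 change -0.45) and 2 of 2 in the neuronal list (0.32). In the fibroblast and stromal list 2 of 3 were higher (0.07), and in the peritubular and vessel wall list 1 of 2 (0.03). The miR-202, endothelial, blood and liver lists each held 1 entry with an unadjusted limma p under 0.05, beside 8.82% of all miRNAs tested. In these lists miR-223-3p, a marker of myeloid cells, was the only 1 at 0 in any library. In whole testis, fewer cells of a type and less RNA per cell cannot be told apart, and the part of these lists in the results below was not tested.

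The cluster was a small fraction of testis miRNA. Together the 59 members took 0.163%, 0.201% and 0.204% of the reads of diabetic replicates 1, 2 and 3 and 0.147%, 0.222% and 0.154% of those of normal replicates 1, 2 and 3. Exact (Clopper-Pearson) 95% intervals, which cover counting error only, ran from 0.149% to 0.178% in diabetic replicate 1, the shallowest library, and from 0.209% to 0.235% in normal replicate 2. Normal replicate 2 was thus the highest of all 6, the other normal libraries were the lowest, and the diabetic libraries lay between them. The means were 0.190% ± 0.0227 in the diabetic group and 0.174% ± 0.0412 among the normal libraries (SD, n = 3 each). This difference was below the SD of the normal group (exact permutation p = 0.8, two-sided, with 0.1 the smallest that 3 against 3 allows). Without normal replicate 2 the difference of 0.0152 percentage points became 0.0389 (exact permutation p = 0.2). It became 0.0015 without normal replicate 1 and 0.00098 without miR-127-3p, the most abundant member.

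**Figure D1:**
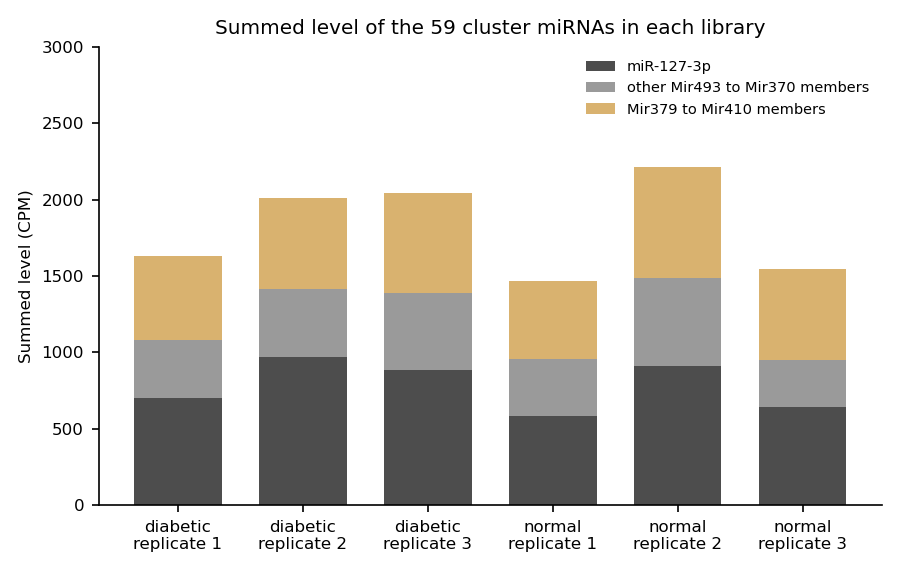
Summed level (CPM) of the 59 members in each library, with miR-127-3p, the other upstream members and the array members stacked. Normal replicate 2 is the tallest bar at 2217 CPM, the diabetic libraries reach 1633, 2008 and 2044 CPM, and the other normal libraries reach 1469 and 1543 CPM.

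The upstream part carried most of the cluster's reads although it held fewer members. It summed to 1080, 1414 and 1389 CPM in the diabetic and 957, 1490 and 949 CPM in the normal libraries (exact permutation p = 0.4), and the array to 553, 594 and 655 CPM against 512, 727 and 594 CPM (exact permutation p = 1). The upstream part was thus above the array in each library, with normal replicate 2 highest in both parts. The array took 31.8% ± 2.15 of the cluster's reads in diabetes against 35.4% ± 2.90 (SD, n = 3 each), with an exact permutation p of 0.2. The difference of -3.55 percentage points became -1.99 without normal replicate 3 and -1.97 without miR-127-3p. The 8 members inside Rtl1 alone took 66.3% ± 1.75 against 62.7% ± 2.73 of those reads (SD, n = 3 each). These shares did not overlap between the groups, at 64.9%, 68.3% and 65.7% against 63.7%, 64.8% and 59.7%, but the gap between the groups was only that from 64.8% to 64.9% (exact permutation p = 0.1). The difference in means was 3.56 percentage points, and that of miR-127-3p alone, 1 of these 8, was 4.19. The share of the members inside Rtl1 without miR-127-3p was not tested.

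miR-127-3p, which is antisense to Rtl1, was the most abundant member and the 95th most abundant entry of the table. It stood at 701, 968 and 886 CPM in the diabetic and 580, 907 and 640 CPM in the normal libraries, from at least 214 reads each. Normal replicate 2 lay among the diabetic libraries and the other normal libraries below all of them. It changed by 0.28 on the log2 scale (SE 0.17, 95% interval -0.09 to 0.65), and the limma adjusted p over all miRNAs tested was 0.724. Leaving out normal replicate 2 gave a log2 change of 0.47 with an unadjusted limma p of 0.0125, and leaving out diabetic replicate 1 gave 0.41 with 0.0238, with adjusted p-values of 0.419 and 0.479. Leaving out normal replicate 1 gave 0.15 with an unadjusted limma p of 0.429, and leaving out diabetic replicate 2 gave 0.18 with 0.382. As a share of the cluster's own reads, miR-127-3p took 42.9%, 48.2% and 43.4% in the diabetic and 39.5%, 40.9% and 41.4% in the normal libraries, so the groups did not overlap (exact permutation p = 0.1, the smallest possible). Its other strand, miR-127-5p, stood at 36.0, 40.3 and 32.8 CPM against 34.0, 38.6 and 20.7 CPM.

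miR-434 and miR-136, the other abundant hairpins inside Rtl1, were read from both arms. miR-434-3p stood at 153.9, 150.5 and 151.1 CPM in the diabetic and 106.5, 164.4 and 88.7 CPM in the normal libraries. The 3 diabetic libraries were nearly equal and lay between normal replicate 2 and the other normal libraries, and the log2 change was 0.39 (SE 0.25, limma adjusted p = 0.728). miR-434-5p was at 52.4, 59.1 and 105.6 CPM against 68.0, 127.9 and 62.2 CPM. miR-136-3p was at 39.3, 75.3 and 78.3 CPM against 40.8, 75.1 and 45.3 CPM, and miR-136-5p at 52.4, 45.7 and 54.6 CPM against 77.1, 107.6 and 45.3 CPM. The groups overlapped for these 3 strands, and their log2 changes of -0.24, 0.24 and -0.50 had standard errors of 0.35, 0.37 and 0.35. Leaving out normal replicate 2 gave miR-434-3p a log2 change of 0.64 with an unadjusted limma p of 0.0230, and leaving out normal replicate 3 gave miR-136-5p -0.83 with 0.0307. In contrast, leaving out normal replicate 3 gave miR-434-3p 0.20 with 0.464, and leaving out normal replicate 2 gave miR-136-5p -0.22 with 0.576. Of the 8 members inside Rtl1, all of which entered the test, 5 were higher and 3 lower in diabetes, with a median log2 change of 0.25, and 0 had an unadjusted p under 0.05 in limma. Of all miRNAs tested, 50.5% were higher and 8.82% had such a p. miR-431 (19.6, 26.9 and 10.9 against 13.6, 6.1 and 7.5 CPM) and miR-433-3p (6.5, 5.4 and 23.7 against 15.9, 10.2 and 11.3 CPM), which complete these 8 and were named after their values were seen, overlapped as well.

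**Figure D2:**
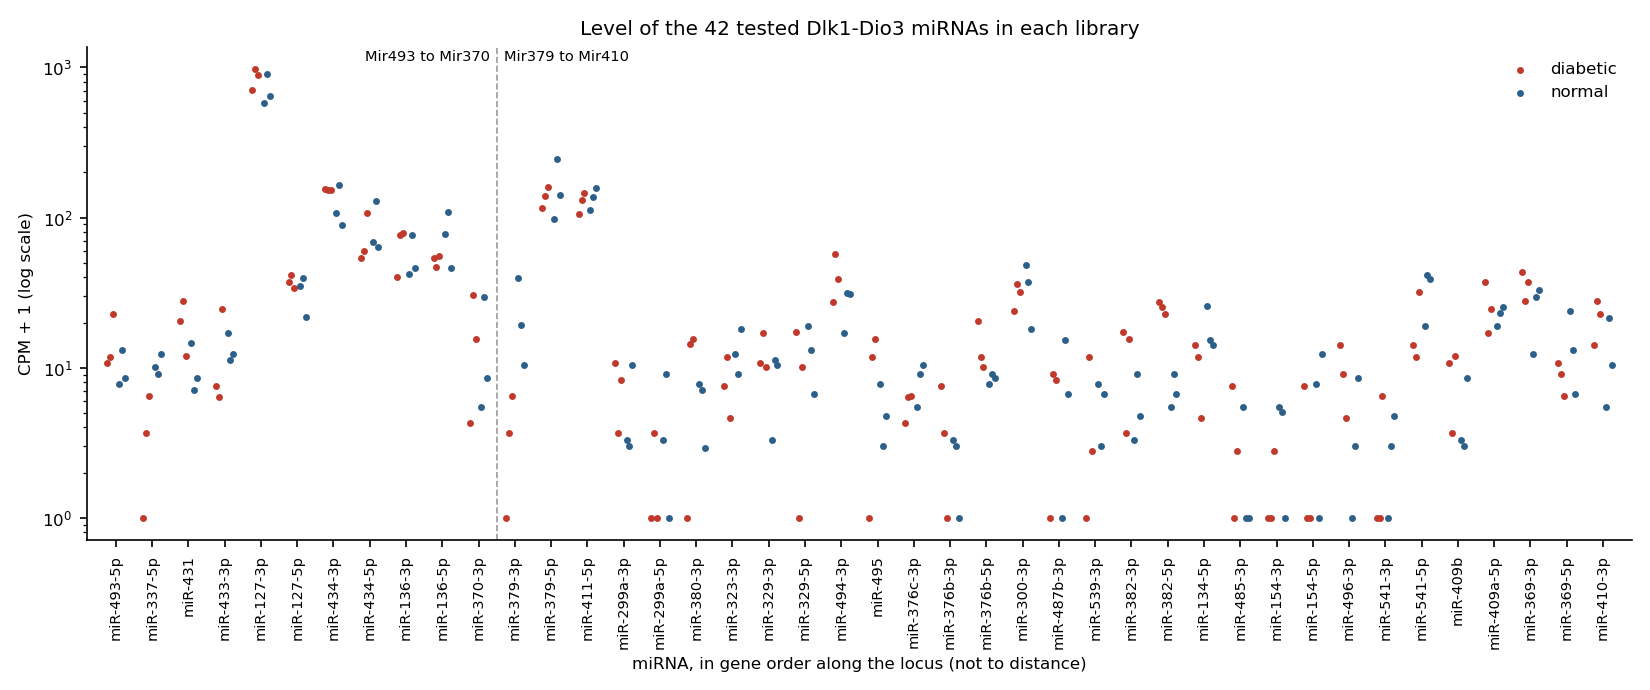
Level of the 42 members that passed the filter in each library, as CPM + 1 on a log axis, in gene order along the locus from left to right, with a dashed line between the upstream part and the array. miR-127-3p stands alone at 580 to 968 CPM, miR-434-3p, miR-379-5p and miR-411-5p lie above 100 in most libraries, and most array members lie under 30 with diabetic and normal points mixed.

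In the array, the first genes were the most abundant. miR-379-5p stood at 115, 137 and 158 CPM in the diabetic and 97.5, 243.6 and 139.6 CPM in the normal libraries, so that the highest and lowest values were both normal. miR-411-5p, from the neighbouring hairpin, stood at 104.8, 129.0 and 145.6 CPM against 111.1 to 156.6 CPM in the normal libraries. Their log2 changes of -0.14 and -0.09 had standard errors of 0.29 and 0.23 and limma adjusted p-values of 0.846 and 0.870, and 95% intervals of -0.76 to 0.49 and -0.59 to 0.41. miR-494-3p (26.2, 56.4 and 38.2 against 15.9, 30.5 and 30.2 CPM) and miR-300-3p (22.9, 34.9 and 30.9 against 47.6, 36.5 and 17 CPM) completed the 10 most abundant members. These 10 took 82.2% ± 2.36 of the cluster's reads in diabetes against 81.7% ± 2.20 (SD, n = 3 each), with an exact permutation p of 0.9. Only 4 members ranked among the 200 most abundant entries of the table.

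Of the 59 members, 42 passed the filter of at least 1 CPM in at least 3 libraries and 17 did not. In limma, 0 of the 42 had an adjusted p under 0.05 (0% of all 578 miRNAs tested), and the smallest was 0.348. With the test on the recovered reads, edgeR and DESeq2 also gave 0 (2 and 1 of all 578). Each gave 2 members at an unadjusted p under 0.05, beside 50 of all 578 with edgeR and 39 with DESeq2. With limma, at an unadjusted p under 0.05 there were 3 members, or 7.14% of the 42 against 8.82% of all miRNAs tested. Of these, 1 was higher (background 5.54%) and 2 were lower in diabetes (background 3.29%). The same 3 also passed the thresholds of the study, a log2 change of 1 or more with p below 0.05 and here without adjustment, which 4.67% of all miRNAs tested did. Diabetic and normal libraries did not overlap for 5 members (11.9%), against 14.9% of all miRNAs tested, and 2 of them were higher (background 7.96%) and 3 lower (background 6.92%). These shares of members lay near the background, from 7.14% against 4.67% to 11.9% against 14.9%. Of the 42, 22 were higher in diabetes (52.4%, background 50.5%) and 20 lower. Their median log2 change was 0.16, beside 0.0046 for all miRNAs tested, and it was -0.09 with a pseudocount of 0.1 in place of 1 and -0.13 without diabetic replicate 3.

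**Figure D3:**
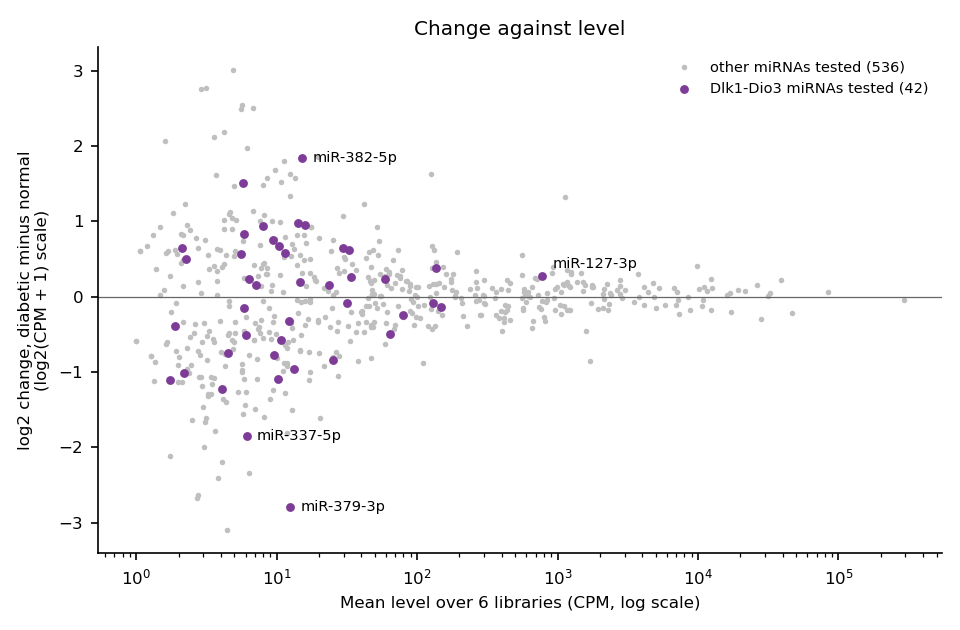
Log2 change (diabetic minus normal, log2(CPM + 1) scale) against mean level (CPM, log axis) for the 578 miRNAs tested, with the 42 members in purple over the others in grey. The members lie on both sides of 0, and miR-379-3p (-2.79), miR-337-5p (-1.85) and miR-382-5p (1.85) lie farthest out, at mean levels under 20 CPM.

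The 5 members without overlap all came from few reads. miR-382-5p was higher in diabetes, at 26.2, 24.2 and 21.8 CPM against 4.5, 8.1 and 5.7 CPM, from 8, 9 and 12 reads against 2, 4 and 3. The means were 24.1 ± 2.20 and 6.10 ± 1.83 CPM (SD, n = 3 each), and the lowest diabetic library was well above the highest normal one. The log2 change was 1.85 (SE 0.59, 95% interval 0.59 to 3.11), and its unadjusted limma p of 0.00693 had an adjusted p of 0.348. Without the mean-variance trend in eBayes, miR-382-5p was the only member with an adjusted p under 0.05, at 0.0347, and 8 of all 578 miRNAs tested passed in that setting. The opposite arm, miR-382-3p, named after its values were seen, was at 16.4, 2.7 and 14.6 CPM against 2.3, 8.1 and 3.8 CPM, and its groups overlapped.

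miR-379-3p was lower in diabetes, at 0, 2.7 and 5.5 CPM against 38.5, 18.3 and 9.4 CPM, from 0, 1 and 3 reads against 17, 9 and 5. No diabetic library held more than 3 reads, and the size of the change moved with the pseudocount: it was -2.79 on the log2 scale (SE 0.86, 95% interval -4.63 to -0.95) and -4.02 with a pseudocount of 0.1. Its unadjusted limma p was 0.00558 and its adjusted p 0.348. Normal replicate 1 alone held 17 of the 35 reads, and without it the log2 change was -2.30 with an unadjusted limma p of 0.0406.

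miR-337-5p, from the upstream part, was at 0, 2.7 and 5.5 CPM in the diabetic and 9.1, 8.1 and 11.3 CPM in the normal libraries, from at most 6 reads. The log2 change of miR-337-5p was -1.85 (SE 0.87), and its unadjusted limma p was 0.0498 (adjusted p = 0.551). The change was -1.09 without diabetic replicate 1 and -3.03 with a pseudocount of 0.1. That p was under 0.05 in only 4 of its 14 alternatives. It was above 0.05 without any 1 library other than diabetic replicate 3, and with edgeR, DESeq2, no filter, the replicate block and a pseudocount of 0.1. miR-134-5p, which in neurons represses the kinase Limk1, was at 13.1, 10.8 and 3.6 CPM against 24.9, 14.2 and 13.2 CPM, so that diabetic replicate 1 and normal replicate 3 nearly met. miR-376b-5p, of a family known for RNA editing in brain, was at 19.6, 10.8 and 9.1 CPM against 6.8, 8.1 and 7.5 CPM, but these were 6, 4 and 5 reads against 3, 4 and 4. Neither had an unadjusted p under 0.05 (limma adjusted p = 0.728 and 0.795), and each of the 5 had an exact permutation p of 0.1.

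**Figure D4:**
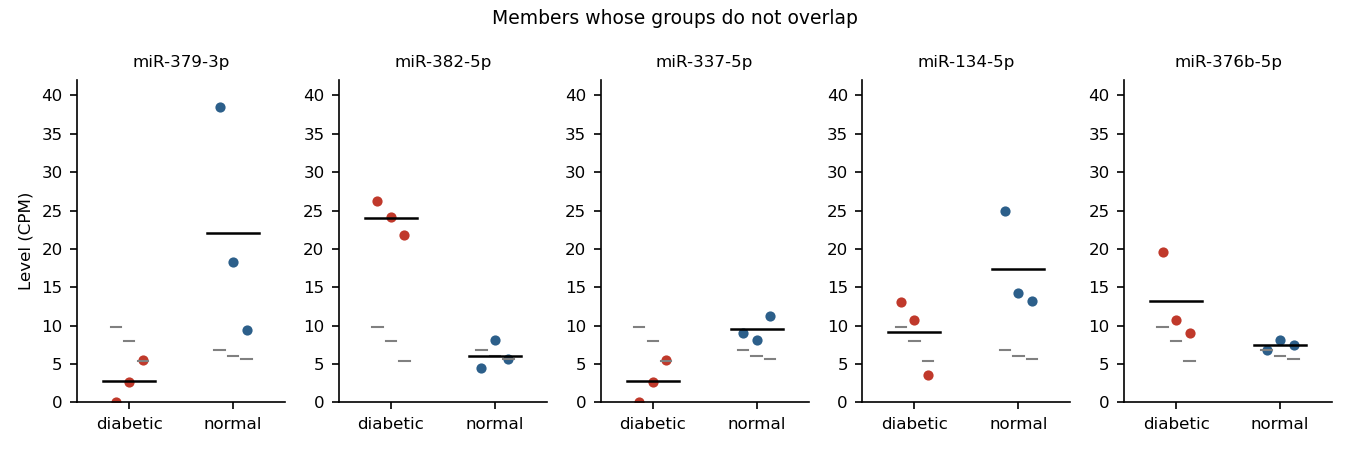
Level (CPM) of the 5 members whose groups did not overlap, with 1 point per library, a black line at each group mean and a grey dash at the level of 3 reads in that library. miR-382-5p has all diabetic points above 20 CPM and all normal points under 10 CPM, whereas the diabetic points of miR-379-3p and miR-337-5p lie at or under the level of 3 reads.

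The share of the cluster's reads from members named as 5p also separated the groups. This share pools different hairpins, so it does not measure the balance of arms within a hairpin, which is given below. Members named as 5p took 31.3%, 25.3% and 31.2% of the cluster's reads in the diabetic and 36.0%, 36.4% and 36.2% in the normal libraries. The normal libraries lay within 1 percentage point of each other and above all diabetic ones, although the cluster's sum was most unequal among them. The means were 29.2% ± 3.41 and 36.2% ± 0.245 (SD, n = 3 each). The exact permutation p was 0.1, the smallest possible. Exact 95% intervals of single libraries were wider than this agreement, from 28.5% to 34.0% in diabetic replicate 3 and from 32.3% to 39.8% in normal replicate 1. The difference was -6.95 percentage points, -8.11 without miR-127-3p and from -7.96 to -4.98 when any 1 library was left out. Over all other known miRNAs of the table, the 5p share was 72.2% ± 0.951 in diabetes against 73.5% ± 1.48 (SD, n = 3 each; exact permutation p = 0.3), and whether the cluster differed from them in this respect was not tested.

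Both sides of that ratio overlapped between the groups when taken as levels. The 5p members summed to 511, 508 and 637 CPM in the diabetic and 528, 808 and 558 CPM in the normal libraries, and the 3p members to 1093, 1460 and 1369 CPM against 916, 1397 and 966 CPM (exact permutation p = 0.5 and 0.3). Among the tested members, 5 of 16 named as 5p were higher in diabetes (median log2 change -0.37), and 14 of 23 named as 3p were higher (median 0.24). Of all miRNAs tested 50.5% were higher, but no such share is given for each arm. Whether these counts are particular to the cluster was therefore not tested. All 3 tested members without an arm in their name were higher.

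For single hairpins, the arms were set against each other as the log2 ratio of 5p to 3p in each library. Of the 20 hairpins with both arms listed, the 5p arm led in 10 and the 3p arm in 10, and 11 could be tested. The leading arm was the one with more reads, and for some hairpins few reads decided it, as for miR-376a (3 against 1) and miR-329 (27 against 25). In 8 of the 11 the ratio was lower in diabetes and in 3 it was higher. No such count is given for the hairpins tested in the whole table. Whether these directions are particular to the cluster was therefore not tested. Some of the 8 rested on few reads, as miR-154 (11 against 5, SE 1.84) and miR-299a (6 against 15, SE 1.56). Of the 11, only miR-379 had an unadjusted p under 0.05, against 5.51% of the hairpins tested in the whole table. Its direction was the opposite of the 8. The log2 ratio of miR-379 was 5.56 in diabetic and 2.91 in normal libraries, a difference of 2.65 (SE 0.91, limma adjusted p = 0.671). The 3p arm held only 0, 1 and 3 reads in the diabetic libraries, so this ratio restates the low miR-379-3p reads and its size depends on the pseudocount. With a pseudocount of 0.1 the difference was 3.89 with an unadjusted limma p of 0.0650, and with the replicate block that p was 0.0846. Its 5p arm took 100%, 98.1% and 96.7% of both arms' reads in the diabetic and 71.7%, 93.0% and 93.7% in the normal libraries, and normal replicate 1 stood apart with an exact 95% interval of 58.6% to 82.5%. The unadjusted p of 0.0293 became 0.0539 without normal replicate 1, 0.0771 without diabetic replicate 1 and 0.0566 without diabetic replicate 2.

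The 3p arm of miR-127 took nearly all reads in every library, and its 5p share was 3.14% to 5.54%. miR-434 and miR-136 were the most evenly read of the abundant hairpins. The 5p share of miR-434 was 25.4%, 28.2% and 41.1% in the diabetic and 39.0%, 43.8% and 41.3% in the normal libraries, and that of miR-136 was 57.1%, 37.8% and 41.1% against 65.4%, 58.9% and 50.0%. Diabetic replicate 3 reached the normal range for miR-434 and diabetic replicate 1 for miR-136. The log2 ratio differed by -0.63 (SE 0.32) for miR-434 and by -0.74 (SE 0.40) for miR-136 (limma adjusted p = 0.844 for both).

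**Figure D5:**
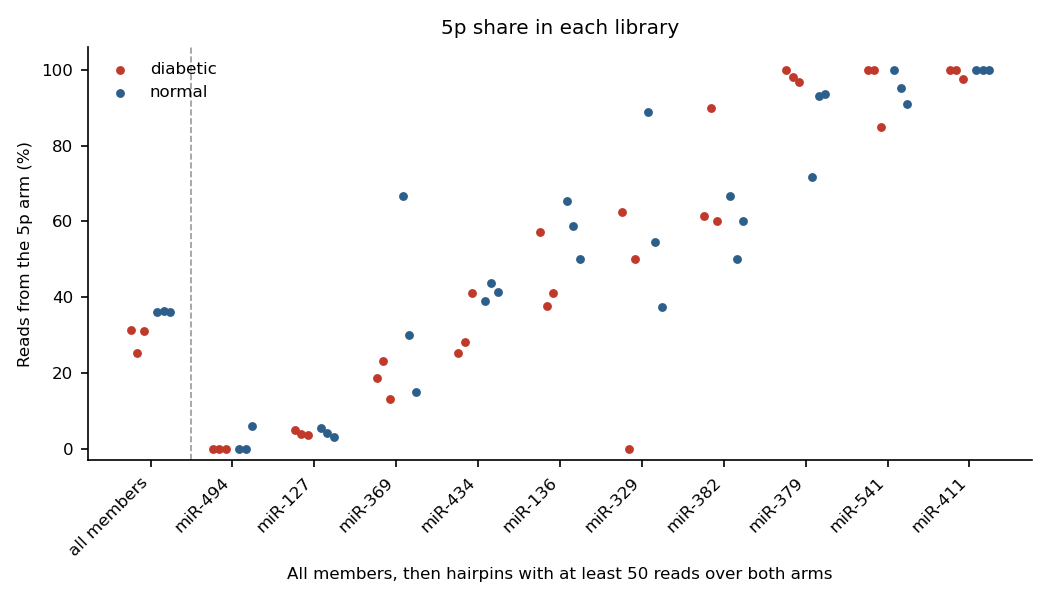
Percentage of reads from the 5p arm in each library, for all members together (left of the dashed line, members without a named arm counted in the total) and for the 10 hairpins with at least 50 reads over both arms. For all members the diabetic points lie between 25.3% and 31.3% and the normal points at 36.0% to 36.4%, whereas for most single hairpins the points of both groups mix.

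The remaining members were scarce. The 27 tested members not named by the rule had mean levels of 1.73 to 29.6 CPM, at most 13.2 reads per library on average. Of these, 15 were higher and 12 lower in diabetes, with log2 changes from -1.23 to 1.51, standard errors from 0.49 to 1.15 and limma adjusted p-values of at least 0.724. The 3 most abundant of them, named after their values were seen, were miR-369-3p (42.6, 26.9 and 36.4 against 11.3, 28.4 and 32.1 CPM), miR-541-5p (13.1, 10.8 and 30.9 against 18.1, 40.6 and 37.7 CPM) and miR-409a-5p (36.0, 16.1 and 23.7 against 18.1, 22.3 and 24.5 CPM), and each overlapped between the groups. miR-541-5p had an unadjusted limma p of 0.0462 without diabetic replicate 3 and of 0.0499 without normal replicate 1. The 17 members that did not pass the filter had 1 to 4 reads each over all libraries. Of these, 10 were read in diabetic libraries only, 6 in normal libraries only and 1 in both, with 14 diabetic and 15 normal reads in total, so at this depth no difference was detectable.

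The number of members with at least 1 read was 36, 38 and 46 in the diabetic and 42, 45 and 41 in the normal libraries (exact permutation p = 0.5). The deepest library had the most and the shallowest the fewest. The difference in means of -2.67 members became -0.667 without diabetic replicate 1, -1.67 without diabetic replicate 2, -1.5 without normal replicate 2 and -5.67 without diabetic replicate 3, the last with an exact permutation p of 0.1. With reads thinned to the smallest library the counts were 36, 36 and 37 against 39, 41 and 36 (exact permutation p = 0.4). Reads were found in all 6 libraries for 28 members and in 1 library only for 12.

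Besides the members, 5 other entries of the table mapped between Mir770 and Mir410. miR-341 (13.1, 18.8 and 25.5 against 6.8, 24.4 and 5.7 CPM) and miR-1193-3p (6.5, 0 and 9.1 against 15.9, 8.1 and 3.8 CPM) entered the test, and 0 passed in either direction (limma adjusted p = 0.787 and 0.795). miR-673-5p, miR-3543 and miR-6331 had at most 3 reads in total. The other imprinted list held miR-296, miR-298, miR-335, miR-483 and the miR-466 family, 14 entries of which 12 were tested. Of these, 7 were higher and 5 lower in diabetes. At an unadjusted limma p under 0.05, 2 were higher (miR-296-5p and miR-298-3p) and 0 lower, beside 5.54% and 3.29% of all miRNAs tested. miR-296 and miR-298, from the imprinted Gnas region, summed to 1601, 1688 and 1694 CPM in the diabetic and 1278, 1362 and 1417 CPM in the normal libraries. These sums did not overlap between the groups (exact permutation p = 0.1), whereas those of the Dlk1-Dio3 members did. Within them, miR-296-5p and miR-298-3p did not overlap, but miR-296-3p and miR-298-5p did. miR-483-3p of the same list did not overlap either but was lower in diabetes, at 6.5, 2.7 and 1.8 against 6.8, 14.2 and 17 CPM. Per CPM of miR-296 and miR-298 the cluster stood at 1.14 ± 0.103 in diabetes against 1.29 ± 0.295 (SD, n = 3 each), with an exact permutation p of 0.6.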

How the data were processed

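Small RNA reads of 6 rat testis libraries, 3 diabetic and 3 normal by their titles, were used as 1 table. The study's methods state that reads were single-end and trimmed of adaptors, that known miRNAs were annotated to families after miRBase, and that the authors computed expression as CPM. The column headings call the values TPM, but each deposited column has the same total with no length term, so they were read as CPM. The submitters' processing notes list Bowtie 0.12.2, HISAT2 2.0, StringTie 1.3.0 and the mouse build mm8 without a role. The build and miRBase release behind the table are not given in the sources used here, so no coordinates are printed. The labels' extraction protocol is that of poly(A) mRNA, and the series design was followed instead.

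Whole reads were recovered from the step that 1 read makes in each library, and 100% of the values came out whole within rounding. The main test was limma 3.58.1 (R 4.3.3; lmFit, eBayes with trend) on log2(CPM + 1) over the 578 miRNAs that reached 1 CPM in 3 or more libraries, two-sided, with Benjamini-Hochberg adjustment. A fold change on this scale understates that of scarce miRNAs. The ratio of arms was fitted the same way. Values per library were compared by an exact permutation test. P-values measure the spread between these 3 libraries per group, since no source says that each is a separate rat. Alternatives were a pseudocount of 0.1, eBayes without trend, no filter, a minimum of 10 reads in every library, DESeq2 1.42.0 size factors, edgeR 4.0.16 TMM factors, the edgeR quasi-likelihood and DESeq2 Wald tests on the recovered reads, a replicate block and leaving out each library. The fit was tested on simulated counts, where recovery of changes was required only for entries averaging 10 or more reads. Of the 59 members 13 reached that level, so the simulation does not cover the others.

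The members and lists were chosen with earlier results of these data known. Named members were the 10 most abundant, those with an unadjusted p under 0.05, those whose groups did not overlap, and both arms of a hairpin whose ratio had an unadjusted p under 0.05. Names matched RefSeq (GRCr8) for all 59 members, with the gene of 2 members taken from their name alone.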

Additional observations from a re-analysis of the deposited data

How the results depend on the processing

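The count of members with an adjusted p under 0.05 was 0 and became 1 (miR-382-5p) with eBayes without the trend, where the count over all 578 miRNAs also went from 0 to 8, and it stayed at 0 in the other settings run. The 3 members with an unadjusted p under 0.05, which were also the 3 past the study's thresholds, became 0 by both counts where each library had to hold 10 reads, because only 8 members were then tested. Both counts were from 2 to 4 when 1 library was left out. The median log2 change of 0.16 was -0.0873 with a pseudocount of 0.1 and from -0.1281 to 0.2407 when 1 library was left out, negative without diabetic replicate 3 and 0.0141 without normal replicate 3, and the cause was not tested. The 1 hairpin with an arm ratio at an unadjusted p under 0.05 became 0 with a pseudocount of 0.1 and with the replicate block, and was 0 to 2 when 1 library was left out. The share of the seed group of miR-410-5p and miR-494-5p, 1 read each, differed by -0.0111 percentage points and by -0.0408 to 0.0297 when 1 library was left out, with a positive sign without diabetic replicate 1 or 2 (0.0038) or normal replicate 3 (0.0297), and no value was possible where each library had to hold 10 reads.

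The shares of the cluster, of the array and of 5p members and the number of members detected kept their direction in every alternative run for them, but their exact test cannot go below 0.1 with so few libraries. The difference in the cluster's share was from 0.0015 to 0.0389 percentage points when 1 library was left out, that of the array from -4.86 to -1.99 and that of the number detected from -5.67 to -0.667 members. For the named members and the miR-379 ratio, other settings gave 124 values on the same side of 0.05 and 7 weaker, and leaving out 1 library gave 77 on the same side, 8 weaker, 4 stronger and 7 reversed. The reversed log2 changes ran from -0.543 to 0.0829 for miR-434-5p and from -0.442 to 0.214 for miR-379-5p, both positive without normal replicate 2. They ran from -0.218 to 0.0401 for miR-411-5p, positive without diabetic replicate 1 or normal replicate 3, and from -0.502 to 0.214 for miR-300-3p, positive without diabetic replicate 1 or normal replicate 1 or 2. The unadjusted p of miR-382-5p and of miR-379-3p was below 0.05 in each of the 14 alternatives.

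A diabetic and a normal library of the same number came from different rats, and their deviations from the group means correlated at -0.113, -0.073 and -0.057 across miRNAs. These values show no sign of pairing by number. With so few libraries they cannot tell whether those of the same number were processed together. With the replicate block 0 members had an adjusted p under 0.05 and 2 passed the study's thresholds. Depth limits most members, since 13 of the 59 averaged at least 10 reads per library.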
